A study of Rattus norvegicus with 4 samples.

Results

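The 5 microRNAs (miRNAs) described here are tied to cardiac metabolism and hypertrophy and were followed in infarcted and sham-operated rat hearts: rno-miR-103, rno-miR-103-1*, rno-miR-107, rno-miR-378 and rno-miR-22. They were chosen by name, as the rat probes that carry these names, and make up 5 of the 689 rat miRNA names on either array version. The day 2 array held 4 of them among 348 rat probes, with no rat probe for rno-miR-103-1*, and the day 14 array held all 5 among 677. The groups were myocardial infarction (MI) at day 2, sham at day 2, MI at day 14 and sham at day 14, all from male Wistar rats of an age not given in the sources used here. All rats had a lateral thoracotomy and an opened pericardium, and the MI rats also had a LAD ligation, the tying off of a coronary artery. Each group was 1 array hybridized with total RNA of heart tissue pooled from 3 rats, so the spread between rats was not measured and no test was possible. The part of the heart sampled (infarct, border or whole) was likewise not stated.

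MiRNAs are short RNAs that pair through their seed, bases 2 to 8, with target messenger RNAs and repress them. miR-103 and miR-107 are near-identical miRNAs carried in introns of the pantothenate kinase genes, whose enzymes start coenzyme A synthesis, and in mice they are known to lower insulin sensitivity. miR-378 is carried by the gene of the mitochondrial coactivator PGC-1β, is abundant in heart muscle cells, and in rodents represses receptors and adaptors of growth factor signalling and restrains hypertrophy. miR-22 is abundant in striated muscle, and mice without it hypertrophy less and dilate under cardiac stress. miR-103-1* is the opposite arm of one of the miR-103 hairpins, the arm usually degraded.

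The mature sequences, from RefSeq on GRCr8, are shown because miR-103 and miR-107 share a seed and differ by a single base, which bears on what their probes can tell apart. Capitals mark the seed.
rno-miR-103: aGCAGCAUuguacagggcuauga
rno-miR-107: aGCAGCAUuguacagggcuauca
rno-miR-378: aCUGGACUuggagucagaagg
rno-miR-22: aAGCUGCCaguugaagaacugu
Of 693 rat mature names in the table, only miR-103 and miR-107 had the seed GCAGCAU, and the seeds of miR-378 and miR-22 each belonged to 1 name. miR-103 and miR-107 were identical at 22 of 23 bases, with the substitution G22C from miR-103 to miR-107, counted from the 5′ end. The mature miR-103 is encoded at chr3:138963278-138963300 on the plus strand within Pank2, and again within Pank3. miR-107 lies at chr1:241750431-241750453 on the minus strand within Pank1, and miR-378 at chr18:57128925-57128945 on the minus strand within Ppargc1b. Each of these hairpins has the orientation of the gene around it. miR-22 lies at chr10:60805387-60805408 on the plus strand, and no gene of the table contained its hairpin. Both miR-103 hairpins, with the mature miR-103 in capitals, are shown because they give the same mature RNA but differ in the opposite arm, the source of miR-103-1*.
Mir103a1: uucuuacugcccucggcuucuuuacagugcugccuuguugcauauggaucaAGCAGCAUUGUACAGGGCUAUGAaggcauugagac
Mir103a2: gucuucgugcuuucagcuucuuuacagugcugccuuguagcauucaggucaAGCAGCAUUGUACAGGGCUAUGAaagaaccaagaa
Their positions are chr10:20748474-20748559 and chr3:138963227-138963312, both on the plus strand. The miR-103 signal therefore sums over both loci.

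The values are scanner intensities of spots, with 4 spots of each probe on an array, corrected for local background and quantile normalized over the 2 arrays of a day. A difference is the log2 mean of the MI array minus that of the sham array, and its standard error (SE) covers the spots only. The MI and sham arrays detected 199 and 166 rat probes at day 2, and 214 and 173 at day 14. The day 2 sham array stood apart, with a median local background of 322 units against 131 on the day 2 MI array and 94 to 100 on both day 14 arrays. Its spot set 4 was dim, at a median of -1.01 on the log2 scale from the median of a probe's 4 spots, over rat probes detected on both arrays. The file header of this array names an image with a mouse prefix although its labels say rat. The scaling moved the median difference of rat probes detected on both arrays: it was 0.07 after quantile normalization and -0.45 with no scaling at day 2, and 0.24 and 0.46 at day 14. Days used different array versions and RNA amounts (1 µg at day 2, 500 ng at day 14), so levels were compared within a day only. All 5 heart muscle markers (miR-1, miR-133a, miR-133b, miR-208 and miR-499) were detected on all 4 arrays, as the tissue label says.

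No member passed 2-fold on either day. In MI at day 2, 8 of 187 rat probes with a measured fold (4.28%) were higher by 2-fold or more and 2 (1.07%) were lower by as much. At day 14 these were 27 of 230 (11.7%) and 8 of 230 (3.48%). The 3 members with a fold at day 2 had a median difference of -0.33, beside 0.09 over all rat probes with a fold. Without the dim spot set 4 the members' median was -0.41 and that of rat probes detected on both arrays -0.31, so most of this gap went, and with the median of the spots they were -0.23 and -0.25. At day 14 the median of the 5 was the value of miR-22, -0.033, beside 0.26 over all, and with no scaling it was 0.36, beside 0.46 over rat probes detected on both arrays. Whether the spots of the 2 arrays overlap is a weak marker here, since many rat probes with a fold did not. At day 2, the MI spots of 12.3% of them were all below the sham spots after normalization (37.4% before scaling), and those of 7.49% were all above (4.81% before scaling). At day 14, 12.6% were all below (5.65% before scaling) and 45.7% all above (57.4% before scaling).

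**Figure D1:**
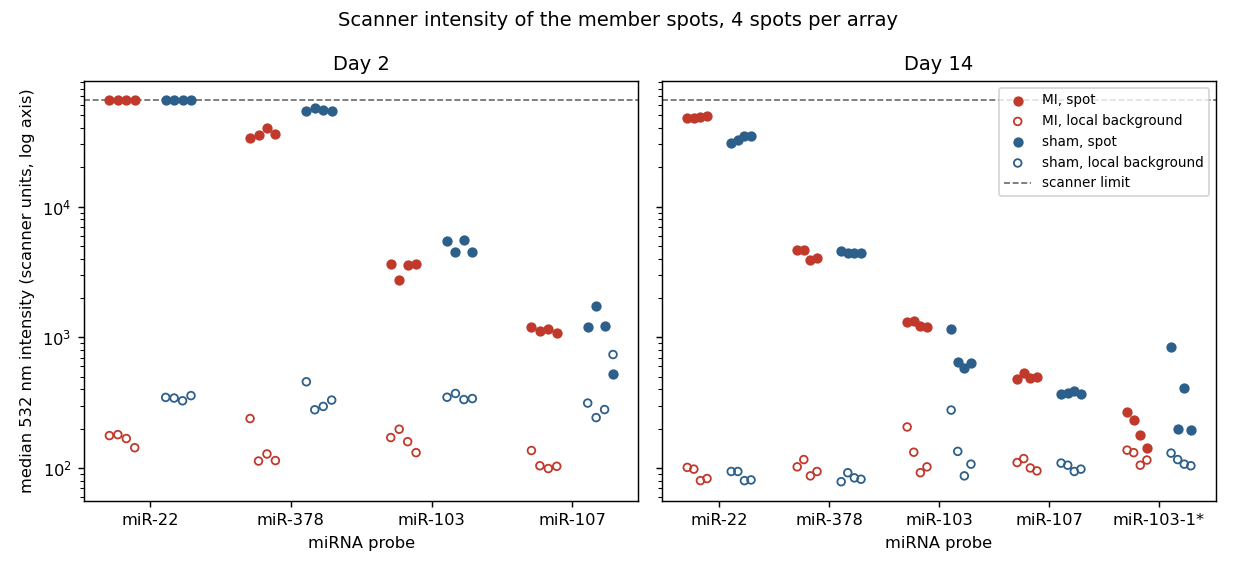
Median scanner intensity of every member spot on a log axis, by miRNA, with MI (red) left of sham (blue), at day 2 (left) and day 14 (right). Filled points are the 4 spots of a probe, open points their local background, and the dashed line is the scanner limit of 65535. miR-22 sat at the limit on both day 2 arrays, and 1 sham spot of miR-107 at day 2 was below its own background. Brightness depends on the probe, so heights of different miRNAs are not comparable.

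miR-378 was lower in the MI pool on both days, and at day 14 its normalized spots did not overlap, which held for 12.6% of rat probes in that direction. At day 2 its 4 spots read 33779, 35223.5, 39889 and 35873 units on the MI array, against 54003, 56674, 55291 and 54336.5 on the sham array. Every MI spot was below every sham spot. The normalized level was 15.18 ± 0.13 in the MI pool and 15.60 ± 0.02 in the sham pool (SD, n = 4 spots each), a difference of -0.41 (SE 0.07), or 1.33-fold lower. It ranked 22 from the lowest of 187. Against the median of rat probes detected on both arrays it stood at -0.48, at -0.16 with no scaling (rank 59 of 189) and at -0.10 without the dim spot set 4 (rank 53 of 189). Between 1% and 10% of the pixels of the sham spots were saturated and none of the MI spots, so part of the sham signal was at the scanner limit.

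At day 14 miR-378 read 4674.5, 4639, 3922 and 4085.5 units on the MI array, against 4606, 4439.5, 4426 and 4458 on the sham array. These unscaled intensities overlapped, 2 MI spots being above all the sham spots and 2 below them. After normalization the groups separated, at 11.78 ± 0.15 in the MI pool and 12.48 ± 0.05 in the sham pool (SD, n = 4 spots each). The difference was -0.71 (SE 0.08), 1.64-fold lower, and ranked 17 from the lowest of 230. With no scaling between arrays it was -0.062 and with a shift by the spike-in controls -0.19, so its size rests on the scaling. Relative to the median of rat probes detected on both arrays, miR-378 stood at -0.95 after quantile normalization and at -0.53 with no scaling. It stood below 0 in 13 of 13 alternative settings at day 2, from -0.76 to -0.28, and in 13 of 13 at day 14, from -0.82 to -0.062. A different probe carried miR-378 on each array version, so its 2 days are not repeats of 1 probe.

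Heart muscle markers moved in the same direction as miR-378 at day 14. All 5 were lower in the MI pool, 4 of them past 2-fold, with a median of -1.37 and a range from -1.42 to -0.66, and their summed normalized intensity was 16427 in the MI pool and 40201 in the sham pool. None of the 5 was at background on either array. Over all rat probes with a fold, 8 (3.48%) were past 2-fold lower, against 1 with no scaling and 4 with the spike-in shift. The count of 4 markers past 2-fold thus rests on the scaling. All 3 fibroblast markers were past 2-fold higher, with a median of 2.94 and summed intensities of 18187 in the MI pool and 2392 in the sham pool. Of 4 leukocyte markers, 3 were past 2-fold higher and miR-150 was past 2-fold lower, with sums of 12256 and 9130 in the MI and sham pools. Over all rat probes with a fold, 11.7% were past 2-fold higher. The endothelium markers were lower too, miR-126 at -0.29 and miR-126* at -0.39. Smooth muscle markers were at 0.81 (miR-143) and -0.15 (miR-145), and erythroid markers at 0.01 (miR-451) and 0.21 (miR-144). In RNA of whole tissue, fewer cells of a type and less of an RNA per cell cannot be told apart, and the part of these shifts in the values of miR-378 or of any other member was not tested. At day 2 the heart muscle markers with a fold were miR-133b (0.33, SE 0.60) and miR-499 (0.51, SE 0.97). The other 3 were saturated on at least 1 array. Without the dim spot set 4, miR-133b was at -0.31 and miR-499 at -0.47. In that setting 4 heart muscle markers had a fold, with a median of -0.18. The median of rat probes detected on both arrays was then -0.31. Leukocyte markers were higher after MI at day 2, 2 of 4 past 2-fold (1 without spot set 4), with a median of 1.35 (0.87 without that set). Their sums, which keep the dim spot set 4, were 49551 in the MI pool and 16842 in the sham pool.

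**Figure D2:**
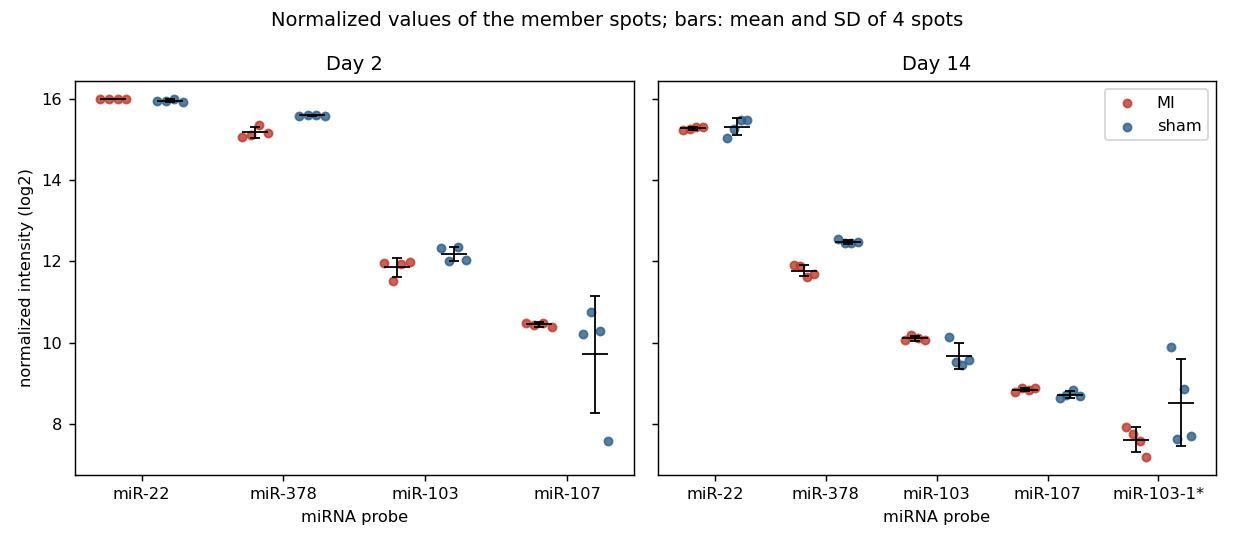
Normalized log2 intensity of the member spots, by miRNA, with MI (red) left of sham (blue), at day 2 (left) and day 14 (right). Points are spots, and black bars give the mean and SD of 4 spots. The spots of miR-378 were apart on both days, those of miR-103 at day 2 only, and the sham spots of miR-107 at day 2 and of miR-103-1* at day 14 were widely spread.

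miR-103 differed in sign between the days, lower after MI at day 2 and higher at day 14. At day 2 its spots read 3626.5, 2743.5, 3552.5 and 3628.5 units on the MI array, against 5463, 4469.5, 5566 and 4497.5 on the sham array, with no overlap. The normalized level was 11.85 ± 0.22 in the MI pool and 12.18 ± 0.18 in the sham pool (SD, n = 4 spots each). The difference of -0.33 (SE 0.14), 1.26-fold lower, ranked 32 from the lowest of 187. It was below 0 in 14 of 14 alternative settings, from -0.64 to -0.09. Against the median of rat probes detected on both arrays, miR-103 stood at -0.40 after quantile normalization, -0.19 with no scaling and -0.12 without spot set 4. With the median of the spots in place of their mean it stood at 0.02 against that median, level with the rat probes as a whole.

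At day 14 the same miR-103 probe read 1313, 1345.5, 1232 and 1208 units on the MI array, against 1152, 647, 578 and 639 on the sham array. The 4 MI spots were above the 4 sham spots, 1 of which was far brighter than the other 3 and had a local background of 277.5 units. The normalized level was 10.10 ± 0.07 in the MI pool and 9.67 ± 0.32 in the sham pool (SD, n = 4 spots each), where the spots overlapped. The difference was 0.44 (SE 0.16), 1.35-fold higher, rank 148 from the lowest of 230, and 0.61 without spot set 1. Against the rat median it stood 0.20 higher. It was above 0 in 13 of 14 alternative settings, the exception being the authors' deposited table, at -0.020, and ran up to 0.82 with no scaling.

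miR-107 gave no settled direction at day 2, because 2 probes read it differently. The probe with the rat name at day 2 read 1196.5, 1114, 1161 and 1081 units on the MI array, against 1193, 1728, 1230 and 520 on the sham array. The sham spot at 520 lay in the dim spot set, under its own background of 739 units, and carries a flag of -50, which in this file format marks a spot that was not found. The normalized level was 10.45 ± 0.05 in the MI pool and 9.71 ± 1.45 in the sham pool (SD, n = 4 spots each), a difference of 0.74 (SE 0.72). Without spot set 4 the difference was 0.05, and with the median of the spots 0.20. Against the median of rat probes detected on both arrays, this probe stood at 0.67 with all spots. It stood at 0.35 without spot set 4 (rank 162 of 189) and at 0.45 with the median of the spots (rank 169 of 190). Without spot set 2 the difference was 1.10, past 2-fold, as it was with local background subtracted (2.55) and in the authors' deposited table (1.74).

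A second probe carried only the human name, hsa-miR-107, on the day 2 array and the human, mouse and rat names on the day 14 array. At day 2 its spots ran from 1841 to 2274 units on the MI array, with a median of 2178.5, against 3346.5 to 4110 on the sham array, with a median of 3883.25. The groups did not overlap, which before scaling held for 37.4% of rat probes with a fold in that direction. The normalized difference was -0.61 (SE 0.08), beside a median of 0.07 over rat probes detected on both arrays. Its values with no scaling and without spot set 4 are not given here. The day 2 reading of this probe was added after the values were seen. At day 14 the same probe read 479.5, 533.5, 487 and 499 units on the MI array, against 369, 376, 386.5 and 367 on the sham array. The MI spots were all brighter before scaling, and the normalized spots overlapped at 8.84 ± 0.04 in the MI pool and 8.71 ± 0.08 in the sham pool (SD, n = 4 spots each). The difference was 0.13 (SE 0.05), 1.09-fold, rank 96 from the lowest of 230. It was above 0 in 11 of 14 alternative settings and below 0 with centred arrays (-0.35), with cyclic loess (-0.042) and in the authors' deposited table (-0.55). The probes' own sequences were not used here, and how far the probes of miR-103 and miR-107 read each other's RNA was not tested.

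**Figure D3:**
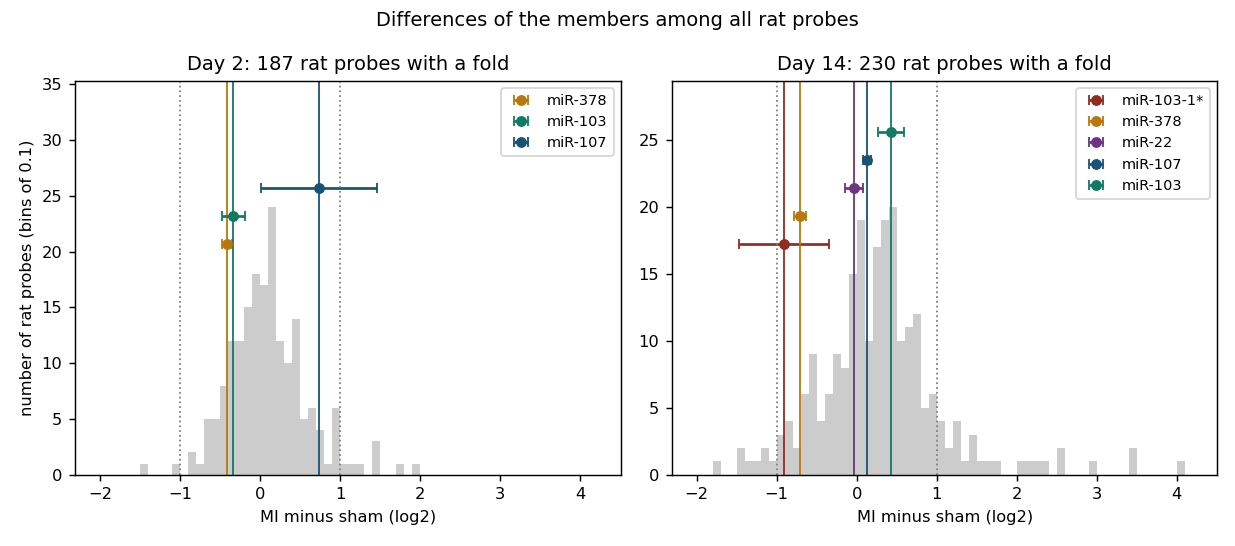
Histogram of the MI minus sham difference (log2) of all rat probes with a fold, in bins of 0.1, at day 2 (187 probes, left) and day 14 (230 probes, right), with each member as a line and as a point with its SE over spots. Dotted lines mark 2-fold. All members lay inside the dotted lines, and at day 14 miR-103-1* and miR-378 were toward the low end.

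miR-22 could be compared at day 14 only. At day 2 all 4 spots on both arrays were at the scanner limit of 65535, with 66% to 89% of pixels saturated on the MI array and 86% to 90% on the sham array, which leaves no fold. At day 14, where 500 ng of RNA was labelled, its spots read 47533.5, 47835, 48746 and 49312 units on the MI array, against 30506.5, 32374, 34724 and 34553 on the sham array. Before scaling every MI spot was brighter than every sham spot, a difference of 0.55. After quantile normalization the level was 15.28 ± 0.04 in the MI pool and 15.32 ± 0.21 in the sham pool (SD, n = 4 spots each), a difference of -0.033 (SE 0.11) with overlapping spots. Its probe was number 2 from the top of 2345 miRNA probes on both arrays. Quantile normalization gives probes of equal rank nearly equal values by construction, so it cannot show a change of such a probe. A shift by the spike-in controls gave 0.43, centred arrays -0.16 and cyclic loess -0.17. Against the rat median the difference was 0.09 with no scaling, a value that centred arrays and the spike-in shift leave unchanged by construction. Against that median it was -0.27 after quantile normalization within the day and -0.26 with cyclic loess. Its direction was thus not settled by these arrays.

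miR-103-1* was close to background. At day 14 its spots read 268, 231, 179 and 143 units on the MI array, against 841, 200, 406.5 and 196 on the sham array, and the groups overlapped. The MI spot at 143 units was 28 above its local background and carries the flag of -50, a spot not found. Spots of negative control probes ran from 54 to 279 units on the MI array and from 62 to 406.5 on the sham array, a range that held every MI spot and 3 of the 4 sham spots. The normalized level was 7.61 ± 0.32 in the MI pool and 8.52 ± 1.08 in the sham pool (SD, n = 4 spots each). The difference of -0.91 (SE 0.56), 1.88-fold, ranked 11 from the lowest of 230 and rested on the 2 brighter sham spots. Without spot set 3 it was a bound of 0, and without spot set 1 the probe was not detected on either array. Over 12 alternative settings it ran from -2.11 in the authors' deposited table to 0, and was past 2-fold in 7, among them without spot set 2 (-1.25) and without spot set 4 (-1.04).

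**Figure D4:**
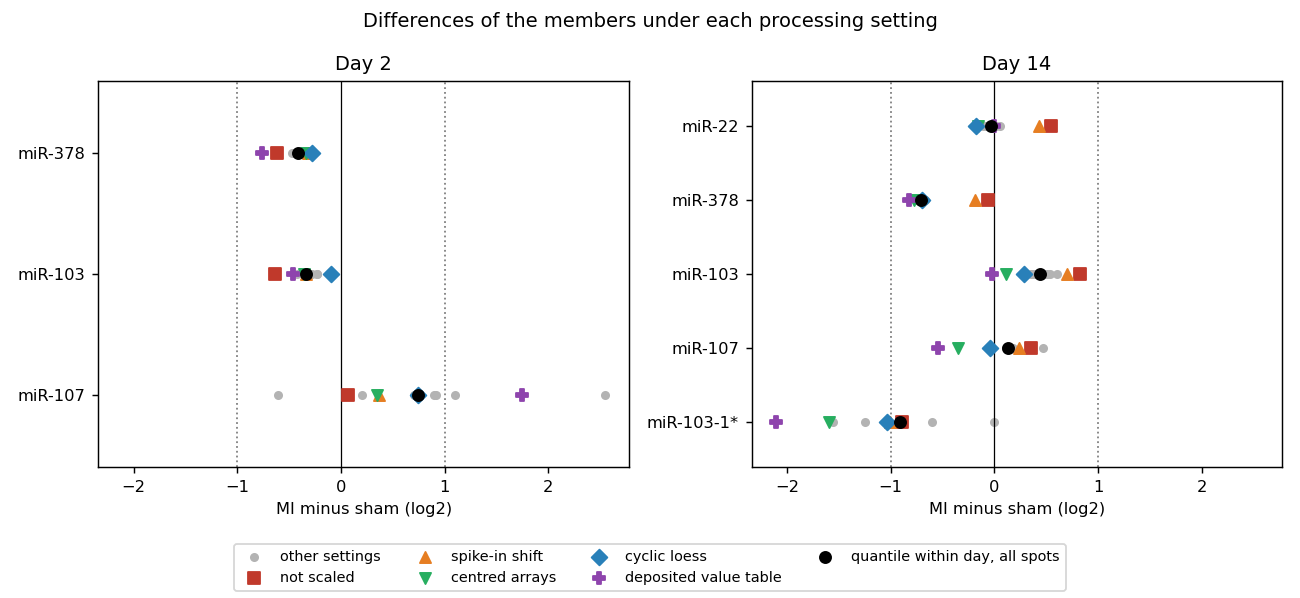
MI minus sham difference (log2) of each member under every processing setting, at day 2 (left) and day 14 (right). Black circles are quantile normalization within the day over all spots, coloured symbols the other scalings and the deposited table, and grey points the remaining settings. miR-378 stayed left of 0 on both days and miR-103 at day 2, while miR-107 and miR-22 at day 14 fell on both sides. miR-103 at day 14 was right of 0 except in the deposited table (-0.020). For miR-107 at day 2 the rat-named probe stayed right of 0, and the point left of 0 is the probe named hsa-miR-107.

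The opposite arms of the members' hairpins gave few values. miR-22* at day 14 ran from 608 to 654 units on the MI array, against 475 to 525 on the sham array, and its normalized difference was -0.03 (SE 0.04). At day 2 it ran from 3400 to 4151.5 units on the MI array, against 806 to 6693 on the sham array. The lowest sham spot was in the dim set, and the difference was 0.47 (SE 0.94). miR-378* at day 2 differed by 0.09 (SE 0.60), and at day 14 it was not detected on either array, like miR-107* and miR-103-2*. miR-107* and miR-103-2* had no rat probe at day 2.

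A further 6 rat miRNAs share the run AGCAGC with miR-103 and miR-107, at bases 2 to 7 in place of 1 to 6, and are grouped with them as 1 extended family. They include miR-195, which in mice restrains division of heart muscle cells after birth. At day 2, 1 of 6 was past 2-fold higher (miR-15b, 1.02, SE 0.84) and none lower, with a median of 0.27. Without the dim spot set 4 none was past 2-fold and the median was -0.15, beside -0.31 over rat probes detected on both arrays. At day 14, 11.7% of all rat probes with a fold were past 2-fold higher, and their median was 0.26. Of the 6, 3 were past 2-fold higher, with a median of 0.88 over the 6. The 3 were miR-195 (1.31, SE 0.08), miR-497 (a bound of 1.14, not detected in sham) and miR-15b (1.11, SE 0.06). miR-103 at 0.44 and miR-107 at 0.13 were among the lower values of the family, with miR-503 at 0.39, miR-322 at -0.05 and miR-16 at 0.66.

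Other miRNAs of lipid and glucose metabolism were described with a list of 13 names. At day 2, 11 had a fold, none past 2-fold, with a median of 0.05. Without spot set 4 the median was -0.19, beside -0.31 over rat probes detected on both arrays. At day 14, 11.7% of all rat probes with a fold were past 2-fold higher, and their median was 0.26. Of the 13 names, 10 then had a fold, 4 of them past 2-fold higher and none lower, with a median of 0.86. The 4 were miR-335 (a bound of 1.43, not detected in sham), miR-195, which is also in the group above, miR-27b (1.08, SE 0.03) and miR-33 (1.01, SE 0.05), which represses cholesterol export genes. miR-320 at -0.09 (SE 0.05) and miR-210, induced by low oxygen, at 0.04 (SE 0.06) were near 0.

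Further lists hold miRNAs that rodent models of hypertrophy showed raised or lowered. Of the 14 raised names, 10 had a fold at day 2, 2 of them past 2-fold higher (miR-21, a bound of 1.44, and miR-222, 1.42, SE 0.46), and the median was 0.35. Without spot set 4, 12 had a fold, only miR-21 past 2-fold, and the median was -0.09. Rat probes detected on both arrays then had a median of -0.31. At day 14, 11 had a fold, 8 past 2-fold higher, with a median of 1.31, led by miR-21 at 3.45 (SE 0.09). Beside this, all rat probes with a fold had a median of 0.26, and 11.7% were past 2-fold higher. Of the 14 lowered names, 7 had a fold at day 2, none past 2-fold, with a median of 0.33 (-0.05 over 9 names without spot set 4). At day 14 all 14 had a fold, 4 past 2-fold lower (miR-150, miR-133a, miR-133b and miR-1), with a median of -0.32. All 4 are also cell type markers, miR-150 of leukocytes and the other 3 of heart muscle. Over all rat probes with a fold the median was then 0.26, and 3.48% were past 2-fold lower. With no scaling only 1 rat probe was past 2-fold lower, so the count of 4 rests on the scaling. The raised list shares miR-199a-5p and miR-214 with the fibroblast markers, and miR-23a, miR-23b, miR-27b and miR-195 with the metabolic list.

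The rat probes nearest to a member in their pair of differences were found among 88 probes detected and unsaturated on all 4 arrays, by Euclidean distance over the 2 log2 differences. miR-378 was nearest to miR-206 (distance 0.20), miR-30e* (0.21) and miR-30e (0.24), which were all lower in the MI pool on both days. miR-30e was at -0.61 at day 2 and -0.84 at day 14. miR-103 was nearest to miR-21* (0.10), miR-503 (0.16) and miR-186 (0.17), and miR-107 to miR-320 (0.23), miR-7a (0.23) and miR-19b (0.28). The last 3 rest on the unsettled day 2 value of the rat-named probe. With the probe named hsa-miR-107, which is the one read at day 14, the nearest were miR-291a-3p (0.12), miR-181d (0.16) and miR-181a (0.20). With only 2 differences a likeness of this kind is a description of these arrays.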

How the data were processed

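Hy3-labelled total RNA was hybridized on miRCURY LNA arrays, per the labels. The authors deposited scanner files with spot intensity, local background intensity, the percent of saturated pixels and a flag, from Mapix 4.5.0 (5 µm pixels), as written in their headers. Probe names follow miRBase 12.0 on the day 2 arrays (version 11.0) and miRBase 16.0 on the day 14 arrays (generation 6). The authors' deposited table holds log2 values made by steps not given in the sources used here. Compared with each array's scanner values, its Spearman correlations were 0.985 to 1.00 and its slopes 1.15 to 1.40, so its scale is wider. Its column medians were 6.36 on both arrays at day 2 and 4.70 on both at day 14. The largest values were also shared by the 2 arrays of a day, 15.995 at day 2 and 15.28 at day 14. The 2 columns of a day were thus on a common scale, as after quantile normalization within a day, but the method used stays unknown, as does the background correction.

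Median foreground was corrected with normexp of limma 3.58.1 in R 4.3.3 (offset 50), quantile normalized over the 2 arrays of a day without control spots, and averaged as log2 over the 4 spots of a probe. Detection of a spot required a foreground more than 2 background SDs above background, and detection of a probe required 50% of its spots. Where 1 array did not detect a probe, or the brighter array was saturated, the fold is a bound. Spots flagged -50 were kept. Calls used a difference of at least 2-fold, and with 1 array per group no test was made. Only the averaging over spots and the difference were tested on simulated arrays. Background correction, normalization, detection, saturation and bounds were not part of that test.

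Groups came from the sample titles, because 1 treatment text stands on all samples. The members, lists and comparisons were chosen with earlier results of these data known. Named miRNAs are the members, the opposite arms of their hairpins, 3 nearest rat probes each, and members of the lists. Alternatives covered scaling, background, spot summary, spot sets, filter and the deposited table. Sequences and host genes are from RefSeq (GRCr8), which held 4 of the 5 members' mature sequences.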

Additional observations from a re-analysis of the deposited data

Results flagged for a closer look

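miR-103 had opposite signs at the 2 time points, -0.33 at day 2 and 0.44 at day 14 (log2, MI minus sham), and the difference between the days was not tested. Every MI spot was below every sham spot at day 2, and above it at day 14 before scaling, the directions in which the unscaled arrays differed as a whole (rat medians of -0.45 at day 2 and 0.46 at day 14). In the authors' deposited table miR-103 was at -0.020 at day 14, where the rat median was -0.16. Against the rat median of that table it stood at 0.14 at day 14 and at -0.30 at day 2. The same probe was used on both days, on different array versions.

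Probes outside the rat names gave a signal above the negative control spots. The probe named hsa-miR-107 differed by -0.61 at day 2 (SE 0.08), opposite in sign to the probe with the rat name (0.74, SE 0.72). The probe named hsa-miR-378c differed by -0.80 at day 14 (SE 0.10), with spots of 567.5 to 707 units on the MI array, against 738 to 917 on the sham array. These spots did not overlap, which before scaling held for 5.65% of rat probes with a fold in that direction. How far this probe reads rat miR-378 was not tested.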

How the results depend on the processing

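Of 108 differences of members under other settings, 90 moved by less than the spread between spots and 18 by more. This tally is a loose measure of stability. The values with no filter on dim probes equal the first ones by construction. For miR-107 at day 2 the spread was 1.45, so the reading of -0.61 beside 0.74 counts among the 90 despite its opposite sign. With no scaling between arrays, miR-103 was -0.64 and miR-378 -0.61 at day 2, and at day 14 miR-103 was 0.82, miR-107 0.36, miR-378 -0.062 and miR-22 0.55. The spike-in shift gave 0.23, -0.19 and 0.43 for miR-107, miR-378 and miR-22 at day 14, and centred arrays 0.11 and -0.35 for miR-103 and miR-107. Cyclic loess gave -0.042 and the mean of pixels 0.47 for miR-107 at day 14. Background subtraction gave 2.55 for miR-107 at day 2. The deposited table gave -0.76 for miR-378 at day 2, and -0.020, -2.11 and -0.55 for miR-103, miR-103-1* and miR-107 at day 14. The probe named for human miR-107, chosen after seeing the data like the list values without spot set 4, gave -0.61 at day 2.

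At day 2, 8 rat probes were past 2-fold higher, against 4 with no scaling, 5 with centred arrays, 4 with quantile normalization over the 4 arrays, 5 with the spike-in shift, 48 with background subtraction, 4 with the median of the spots and 25 in the deposited table, and 2 to 16 with a spot set left out, the lowest without the dim set 4. Past 2-fold lower were 2, against 23, 10, 1 and 10 with those 4 scalings, 1 with cyclic loess, 8 with background subtraction, 19 in the deposited table, 4 with no filter, and 1 to 2 with a spot set left out. At day 14, 27 were higher, against 42 with no scaling, 16 with centred arrays and 59 with background subtraction. Lower were 8, against 1 with no scaling, 31 with centred arrays, 13 with cyclic loess, 5 with quantile normalization over the 4 arrays, 4 with the spike-in shift, 21 with background subtraction, 28 in the deposited table and 14 with no filter. The causes of these shifts were not tested.

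No paired analysis was possible because each group was 1 array. Spots of an array share 1 pool of RNA, so the SEs leave out rats and labelling. Quantile normalization over the 4 arrays gave no value for miR-378, miR-103-1* or miR-107 at day 2, whose probes are not on both array versions. Signal over background limits miR-103-1*, and saturation limits miR-22 at day 2.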

Other observations

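The day 14 array also held a probe named for mouse miR-103-1*, which was not detected on either array, with no spot above 126 units. The probe named hsa-miR-378b was likewise not detected, at 76 to 105 units in the MI pool and 112 to 139.5 in the sham pool.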
